A study of Mus musculus with 10 samples.

Results

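The genes described here encode the enzymes, carriers and regulators that activate fatty acids and oxidise them, measured in C2C12 cells that received a mimic of the microRNA miR-27a-3p or a scrambled control. The group holds 33 genes out of 34650 gene names on the array, chosen by name for their place in the pathway, and each was read from its brightest probe. Of the 33 members, 30 passed the detection filter (well above background in at least 4 of 10 files) and were tested among 13131 genes, while Cpt1b, Slc25a20 and Acads did not pass it. C2C12 is an established mouse myoblast line, and all of the cells were transfected with Lipofectamine. The mimic or the scrambled RNA was given at 150 nM, the cells were taken at 72 h, and the labels put the transfection efficiency at about 60%, so untransfected cells were part of every sample. Cells left untreated were not among the samples, so each difference below is mimic minus scrambled.

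The labels list 6 mimic and 4 scrambled samples. By the file headers, these 10 files came from 5 array positions on 1 slide, each scanned 2 times, and non-uniform spots recurred between files of 1 position (24 to 81 in common, where other pairs of files had 0 to 1). Averaging the files of each position left 3 mimic arrays and 2 scrambled arrays. Nothing in the labels says whether these arrays came from separate cultures, so p-values measure only the spread between arrays, which may be technical. Up to 35.3% of non-control spots in a file were well above background, and no spot was saturated. Levels are log2 processed signals scaled to the 75th percentile over detected probes, array by array, so 0 is that percentile and 1 unit is a factor of 2. Levels of different probes are not ranked against each other, since probes differ in brightness for equal amounts of RNA. Where levels of several probes are summed or subtracted, the sum or the subtraction is compared between arrays.

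In mitochondrial beta-oxidation, a fatty acid is first joined to coenzyme A and then passed to carnitine to cross the inner membrane. It is shortened there in repeated rounds of dehydrogenation, hydration, dehydrogenation and thiolysis, with electrons leaving through the electron transfer flavoprotein. Peroxisomes run a related cycle, and nuclear receptors of the PPAR family drive many of these genes in muscle and other oxidative tissues. A microRNA acts mainly by pairing its seed with transcripts, which are then destabilised or translated less.

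The mature microRNA is given first because its seed, bases 2 to 8 from the 5′ end (in capitals), defines what was introduced into the mimic samples. The sequence is from RefSeq, at GRCm38.p6 chr8:84208727-84208747 on the plus strand.
mmu-miR-27a-3p: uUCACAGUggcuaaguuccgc

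The complement of this seed, ACTGTGA, was in 0 of the 33 member probes and in 0.817% of all 55681 probes (455). That count concerns the 60-base probe sequences alone, and untranslated regions were not analysed here.

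Across the members, Ucp2 and Ucp3, which encode mitochondrial carriers of the uncoupling protein family, fell in the mimic arrays, and no member rose. Both were well above background in 4 of 4 scrambled files and in 0 of 6 mimic files. The other 28 tested members did not pass the threshold of 0.05 on the adjusted p of limma's moderated test. Over all genes tested, 2.35% fell and 2.76% rose by the same rule (1.77% and 3.78% with the percentile taken over all probes). Differences were below 0 for 22 of 30 members (73.3%), against 54.7% of all genes tested, and the members' median difference was -0.29 against -0.05 over all genes. With the 75th percentile taken over all probes, which moved the median of all genes to 0.11, the members' median was -0.13 and 17 of 30 were below 0, so differences are best read relative to the median of all genes. At an unadjusted p under 0.05, 9 members were lower and 1 was higher, against 14.1% and 11.1% of all genes in the respective directions. The mimic and scrambled arrays did not overlap for 14 members that were lower and 2 that were higher, where 25.7% and 19.8% of all genes had no overlap in those directions. These counts describe a list chosen by name with earlier results of the data known, and they are no test of the list.

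**Figure D1:**
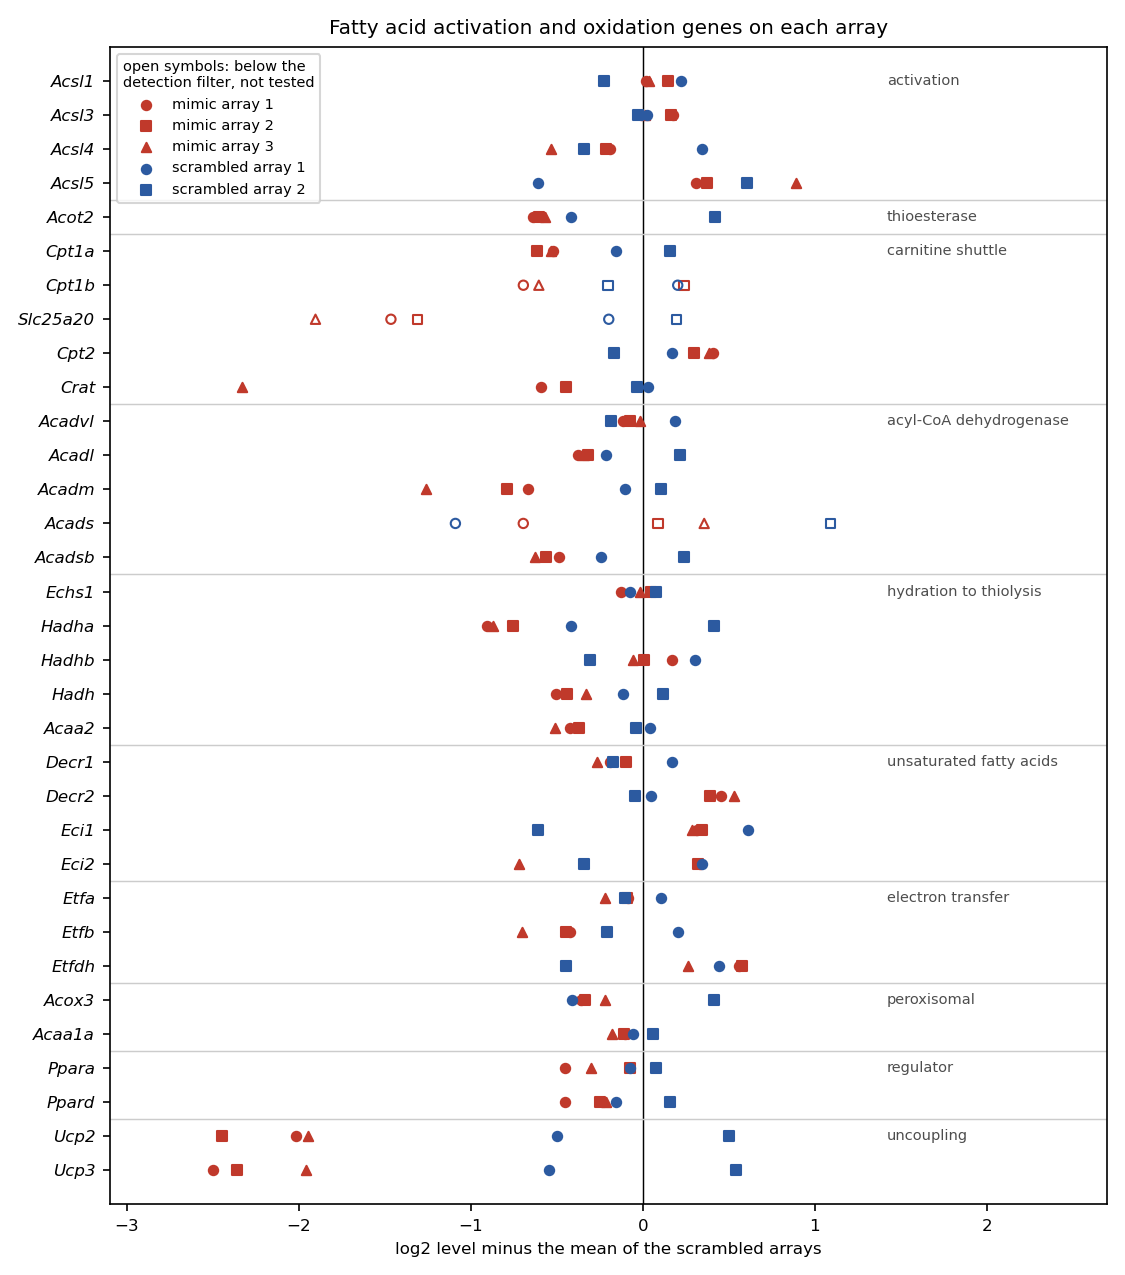
Log2 level of each of the 33 members on each array minus the mean of the 2 scrambled arrays (horizontal axis), with 3 mimic arrays in red, 2 scrambled arrays in blue and open symbols for the 3 members below the detection filter. Ucp2 and Ucp3 lie near -2 or lower on all 3 mimic arrays, while most other members lie within 1 unit of 0.

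The median of the tested members, taken on each array relative to the scrambled mean, was -0.28, -0.16 and -0.29 on mimic arrays 1, 2 and 3. The same median was -0.02 and 0.02 on the scrambled arrays. These values mirror each other because the reference is the mean of the same arrays, so they give no measure of noise. In units of the 75th percentile, the members' linear levels, summed, ran from 23.4 to 26.8 on the mimic arrays. On the scrambled arrays they ran from 27.7 to 32.7. Bright probes weigh most in these sums, which were not repeated under other scalings. The scrambled arrays were further from each other than the mimic arrays were: the median SD of a member was 0.0857 over the mimic arrays and 0.278 over the scrambled arrays, and 23 of 30 members had the larger SD in the scrambled arrays. The corresponding medians over all genes tested were 0.124 and 0.256. For 15 of 30 members the 2 scrambled arrays lay further apart than the mimic and scrambled means. Member intervals (95%, from limma) excluded 0 for 10 of 30 and lay within 1 log2 unit of 0 for 20 of 30, so for those 20 a change beyond a factor of 2 lay outside the interval.

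**Figure D2:**
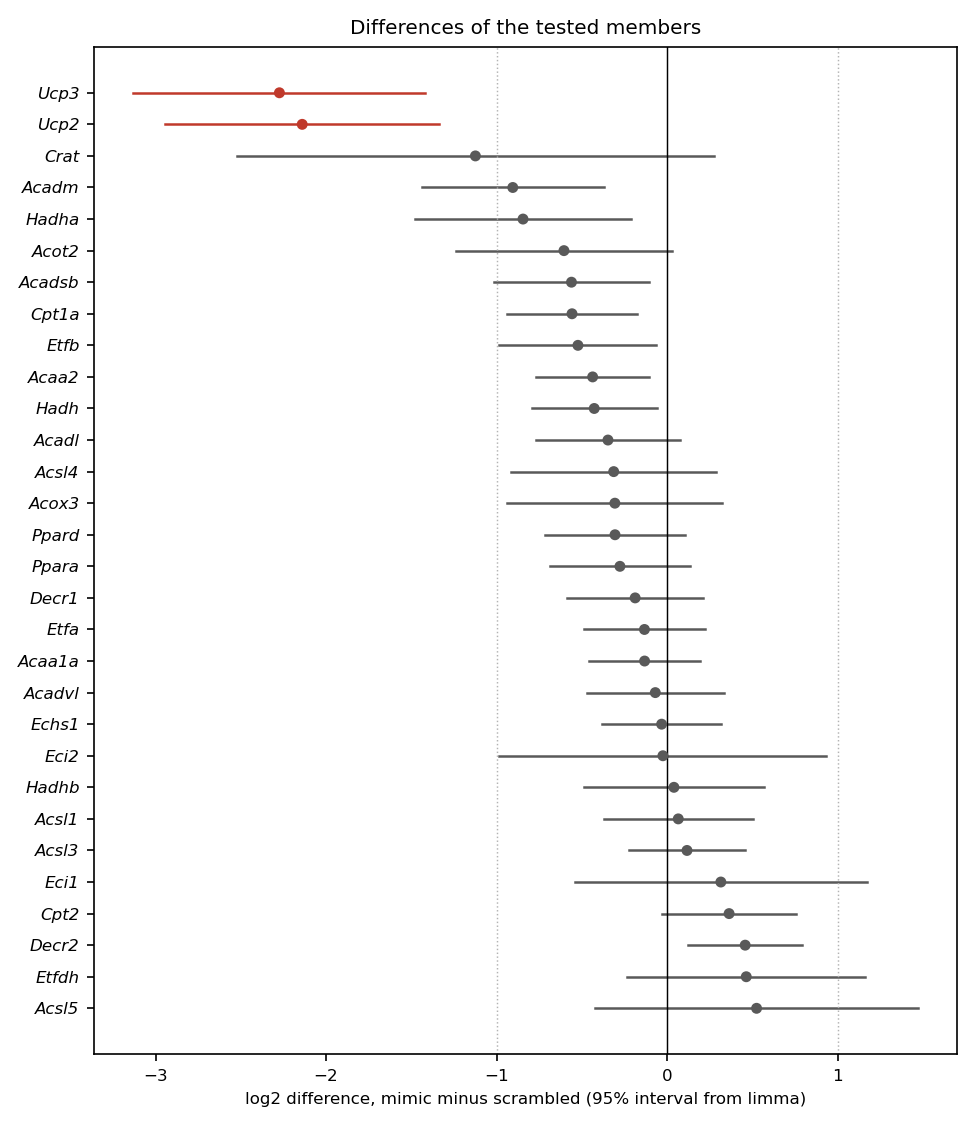
Mimic minus scrambled log2 difference (point) and its 95% interval from limma (line) for the 30 tested members, in order of the difference, with red for the 2 past the threshold of 0.05 on the adjusted p and dotted lines at -1 and 1. The intervals of Ucp3 and Ucp2 end at -1.42 and -1.34, and every other interval reaches -0.37 or higher.

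The uncoupling proteins are carriers of the inner mitochondrial membrane. Ucp3 is found mainly in skeletal muscle and brown fat, and Ucp2 is found in many tissues. Their genes are neighbours on mouse chromosome 7, and their probes lie 17350 bases apart on mm9, both on the plus strand. Probe sequences are shown because both calls rest on 1 probe each. The Ucp2 run is the part of the probe that ends with an in-frame stop codon (capitals), and the full probe spans mm9 chr7:107647809-107647868. The Ucp3 probe spans mm9 chr7:107630399-107630458.
Ucp2: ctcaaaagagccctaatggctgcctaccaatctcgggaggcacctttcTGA
Ucp3: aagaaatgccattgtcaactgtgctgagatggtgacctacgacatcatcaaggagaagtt

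Ucp2 levels were -5.47, -5.90 and -5.40 on mimic arrays 1, 2 and 3, and -3.95 and -2.95 on scrambled arrays 1 and 2. Every mimic array was below both scrambled arrays, which were themselves about 1 unit apart. As processed signals before scaling, the mimic files ran from 36.7 to 80.9 and the scrambled files were 167, 289, 151 and 242. The limma difference was -2.14 ± 0.33 (SE, 3 mimic and 2 scrambled arrays), with an adjusted p of 0.025. Because the transcript was not well above background in any mimic file, the mimic level is a bound. Between the group means it was at least 2.82-fold lower. For this, each file of the dim group was set to the lowest signal well above background in that file, or to its own signal if higher. This bound covers neither the spread between arrays nor other background corrections.

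Ucp3 levels were -6.49, -6.34 and -5.94 with the mimic, against -4.53 and -3.44 with scrambled RNA. As with Ucp2, scrambled array 2 was the brighter of the scrambled arrays and no mimic array reached either. Processed signals ran from 15.3 to 55.9 in the mimic files and were 118, 211, 96.5 and 168 in the scrambled files. The difference was -2.27 ± 0.35 (SE) with an adjusted p of 0.026, and the bound was at least 2.00-fold lower. Another Ucp3 probe was not well above background in any file and had a difference of -0.13. Both genes passed the detection filter only through the scrambled group, so a gene chosen that way had to differ, and their calls are read with that limit.

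Each scan gave both differences on its own. For Ucp2 they were -2.35 in the scan numbered 1 and -1.93 in the scan numbered 2. For Ucp3 they were -1.91 and -2.63. The calls depended on the arrays entered: without any 1 of the mimic arrays neither gene passed, with adjusted p from 0.071 to 0.100 for Ucp2 and from 0.061 to 0.110 for Ucp3. Ucp3 also missed without the file of mimic replicate 5 (0.053). With normexp background correction the Ucp2 difference was -1.13 with an adjusted p of 0.068 and the Ucp3 difference was -1.05 with an adjusted p of 0.041.

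**Figure D3:**
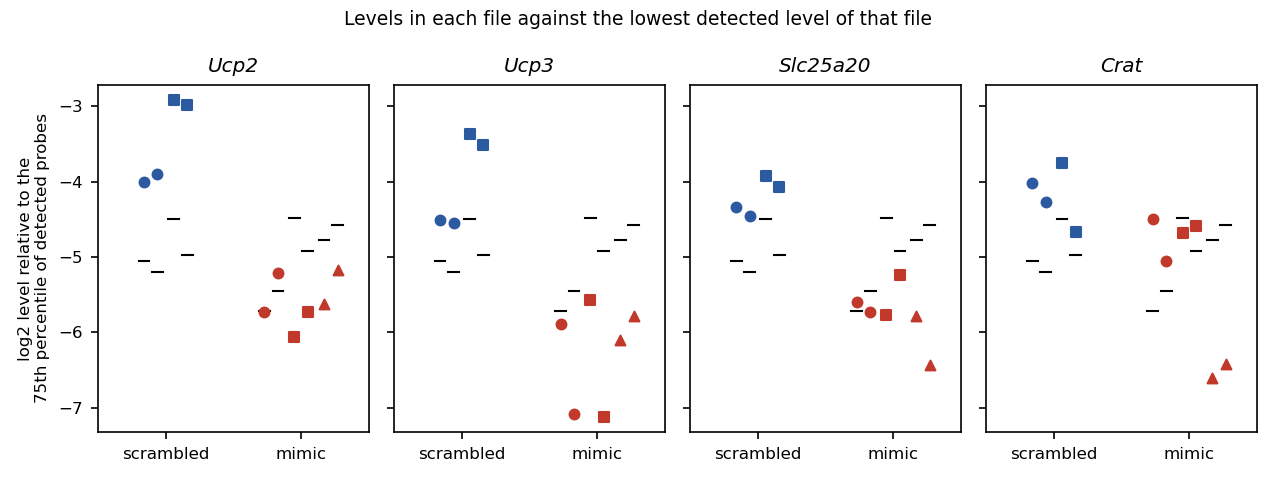
Log2 level on the scale above, where 0 is the 75th percentile (vertical axis), in each of the 10 files for Ucp2, Ucp3, Slc25a20 and Crat, with blue for scrambled, red for mimic, a marker shape per array, and a black tick at the lowest level well above background in that file. Ucp2 and Ucp3 lie above the tick in all 4 scrambled files, and the ticks run from -5.71 to -4.49 in the mimic files. Ucp2 in mimic replicate 4 also lies above its tick (-5.21 against -5.45), though it was not well above background there.

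Promoters of the neighbouring pair are shown because both members moved together. Each is the 250 bases before the start of the gene, from RefSeq on GRCm38.p6 and on the plus strand, with AGGTCA (the core of nuclear receptor binding sites) and CAGCTG (an E-box, the element bound by MyoD-type factors) in capitals. The Ucp3 window is chr7:100472741-100472990 and the Ucp2 window is chr7:100493108-100493357.
Ucp3: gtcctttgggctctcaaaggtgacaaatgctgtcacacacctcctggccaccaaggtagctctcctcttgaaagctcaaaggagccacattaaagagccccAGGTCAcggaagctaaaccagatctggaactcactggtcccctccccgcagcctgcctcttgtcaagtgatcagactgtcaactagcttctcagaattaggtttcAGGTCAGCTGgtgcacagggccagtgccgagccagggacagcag
Ucp2: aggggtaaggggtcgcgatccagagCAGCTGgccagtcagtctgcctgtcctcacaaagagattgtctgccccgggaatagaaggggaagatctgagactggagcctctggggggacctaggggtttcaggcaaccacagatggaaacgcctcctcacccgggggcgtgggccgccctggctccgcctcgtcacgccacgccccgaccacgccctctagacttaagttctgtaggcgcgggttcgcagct

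The Ucp3 window held 2 copies of AGGTCA and 1 of CAGCTG, and its capital run AGGTCAGCTG is an overlap of both motifs. The Ucp2 window held 0 and 1. With both strands searched, AGGTCA was in 5 of 29 members with a promoter in the table (17.2%) and in 13.8% of 27025 promoters of that length. The members were Acadm, Acadvl, Cpt1a, Echs1 and Ucp3. CAGCTG, which reads the same on both strands, was in 8 of 29 (27.6%) and in 12.8% of all promoters, the members being Acadsb, Acot2, Acsl3, Acsl4, Cpt1a, Ppard, Ucp2 and Ucp3. A match is a string of letters and was not tested as a binding site.

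Entry of fatty acids into the pathway showed no call. The long-chain acyl-CoA synthetases Acsl1, Acsl3, Acsl4 and Acsl5 join fatty acids to coenzyme A, and 0 of 4 passed the threshold, with 1 difference below 0 and 3 above. Acsl1 measured -1.74, -1.61 and -1.72 with the mimic, against -1.53 and -1.98 with scrambled RNA, so the mimic values lay between the scrambled ones. Its difference was 0.07 ± 0.18, and another Acsl1 probe gave -0.51. Acsl3 stood at -1.17, -1.17 and -1.33 against -1.32 and -1.37, a difference of 0.12 ± 0.14. For Acsl4, which prefers arachidonic acid, the mimic levels were 1.25, 1.23 and 0.90 and the scrambled levels 1.78 and 1.10, so the groups overlapped, and the difference was -0.31 ± 0.25. Acsl5 had the widest spread of these, with -3.53 and -2.32 on the scrambled arrays alone, and its difference of 0.53 ± 0.39 had an interval from -0.42 to 1.47.

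Acot2, a mitochondrial thioesterase that splits acyl-CoA back to free fatty acid, was at -4.02, -3.99 and -3.96 in the mimic arrays and at -3.81 and -2.97 in the scrambled arrays. The groups did not overlap, but scrambled array 1 was close to the mimic arrays and scrambled array 2 was not. The difference was -0.60 ± 0.26 with an adjusted p of 0.211.

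The carnitine shuttle held 5 members, of which 3 were tested and 0 called. Cpt1a, the outer-membrane carnitine palmitoyltransferase that controls entry of long-chain fatty acids, measured -2.02, -2.11 and -2.03 with the mimic, against -1.66 and -1.34 with scrambled RNA. The groups did not overlap, and the difference of -0.56 ± 0.16 had an interval from -0.94 to -0.18 and an adjusted p of 0.101. Its probe is spotted 10 times on the array and the SD of those 10 spots within a file was 0.0590 to 0.125, which covers spot noise alone and not the spread between arrays. Another Cpt1a probe gave -0.44 but was well above background in only 1 file.

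Cpt2, the inner-membrane enzyme that returns acyl groups to coenzyme A, lay on the other side. Its levels were -1.23, -1.33 and -1.25 on the mimic arrays against -1.46 and -1.80, also without overlap, with a difference of 0.36 ± 0.16 and an adjusted p of 0.220. Set against each other on the same arrays, Cpt1a minus Cpt2 was lower with the mimic by 0.92 (-0.92 as a log2 difference of differences). Its per-array values were -0.79, -0.78 and -0.78 with the mimic and -0.19 and 0.46 with scrambled. This pair, like the pairs Hadha and Hadhb and Etfa and Etfb below, was chosen after its values were seen and was not tested.

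Slc25a20, the carnitine-acylcarnitine translocase of the inner membrane, did not pass the filter and so has no p. It was well above background in 0 of 6 mimic files and 3 of 4 scrambled files. The levels were -5.66, -5.51 and -6.10 with the mimic, against -4.40 and -4.00 with scrambled RNA, which gives a mimic level at least 1.70-fold lower by the bound used for Ucp2. Processed signals ran from 33.8 to 68.1 in the mimic files and were 133, 143, 102 and 114 in the scrambled files. The probe behind these values, at mm9 chr9:108585399-108585458, is shown because the gene has no other on the array.
Slc25a20: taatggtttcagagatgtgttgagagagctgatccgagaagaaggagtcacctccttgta

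Cpt1b, the muscle form of the outer-membrane enzyme, reached detection in only 1 mimic file and 1 scrambled file, so no level could be compared in this line. Crat, which moves acetyl groups between carnitine and coenzyme A, was detected in 1 of 6 mimic and 3 of 4 scrambled files. Its levels were -4.78, -4.63 and -6.51 against -4.15 and -4.21, and mimic array 3 stood apart from the other arrays, within a difference of -1.12 ± 0.57 (adjusted p 0.270).

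Acyl-CoA dehydrogenases carry out the opening step of each round, and each prefers a range of chain lengths. All 4 tested were below 0, with a median of -0.45, and 0 were called (Acadvl was above 0 with the percentile over all probes and after centring by probe GC). Acadm, the medium-chain enzyme, had the largest difference of the 27 members that were well above background in all 10 files. It measured 0.15, 0.03 and -0.44 with the mimic, against 0.71 and 0.92 with scrambled RNA, with no overlap and the lowest value on mimic array 3. The difference was -0.90 ± 0.22, with an interval from -1.44 to -0.37 and an adjusted p of 0.074. The scans numbered 1 and 2 gave -0.65 and -1.16. The 2 files of mimic array 3 disagreed, at 0.23 in replicate 3 and -1.11 in replicate 6. The low value of that array therefore rests on 1 file.

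Acadsb, which acts on short branched chains, stood at -2.88, -2.95 and -3.02 against -2.63 and -2.15, a difference of -0.56 ± 0.18 (adjusted p 0.139). Acadl, the long-chain enzyme, was at -1.56, -1.50 and -1.52 against -1.39 and -0.96, a difference of -0.35 ± 0.17 (adjusted p 0.263). Both had no overlap between the groups, and in both scrambled array 2 was the higher. Acadvl, the membrane-bound very-long-chain enzyme, differed by only -0.07 ± 0.16, with the mimic values 1.0, 1.04 and 1.10 between 1.30 and 0.93. Acads, the short-chain enzyme, was not well above background in any file.

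The later steps of the round are run by Echs1, which hydrates, Hadh, which dehydrogenates medium and short chains, Acaa2, which thiolyses, and the trifunctional protein, which does all of these for long chains and is built from Hadha and Hadhb. Of these 5, 4 were below 0 with a median of -0.43, and 0 were called (Echs1 was above 0 with the percentile over all probes and after centring by probe GC, and Hadhb was below 0 after the latter). Hadha measured -2.40, -2.25 and -2.37 with the mimic, against -1.91 and -1.08 with scrambled RNA. The mimic arrays were closer to each other than the scrambled arrays, and the difference was -0.84 ± 0.26 with an adjusted p of 0.122. Hadhb did not follow it, at 0.69, 0.53 and 0.46 against 0.83 and 0.22, a difference of 0.04 ± 0.22.

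The Hadha and Hadhb genes lie head to head, with 272 bases between their starts on chromosome 5 (GRCm38.p6). On the same arrays Hadha minus Hadhb was -3.09, -2.78 and -2.83 with the mimic and -2.74 and -1.30 with scrambled. Scrambled array 1 was therefore next to the mimic arrays, and the difference of -0.89 between the groups rests on scrambled array 2. Unequal change of both subunits was thus seen against 1 of the scrambled arrays only.

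Hadh levels were -1.14, -1.08 and -0.97 against -0.75 and -0.52, which gives -0.43 ± 0.15 (adjusted p 0.154) with no overlap. Acaa2, on chromosome 18, had little spread within either group, at 1.69, 1.74 and 1.60 with the mimic and 2.15 and 2.07 with scrambled. Its difference was -0.44 ± 0.14 (adjusted p 0.124), and the 10 repeated spots of its probe had an SD of 0.0471 to 0.105 within a file. Echs1 was -0.36, -0.19 and -0.25 against -0.31 and -0.16, a difference of -0.03 ± 0.14, with an interval from -0.38 to 0.32.

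Unsaturated fatty acids need auxiliary enzymes before they can enter the round. Decr2, the peroxisomal dienoyl-CoA reductase, was the member nearest to a call in the upward direction. It measured -2.07, -2.14 and -2.0 with the mimic, against -2.48 and -2.58 with scrambled RNA, with no overlap and close agreement within each group. The difference was 0.46 ± 0.14, the interval ran from 0.12 to 0.79, and the adjusted p was 0.113. Its mitochondrial counterpart Decr1 had levels of 0.70, 0.79 and 0.62 against 1.06 and 0.72, a difference of -0.19 ± 0.16. Another Decr1 probe was not tested, being detected in 0 mimic and 2 scrambled files, and gave -1.45 without overlap, or at least 1.35-fold lower by the bound used above.

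The enoyl-CoA isomerases Eci1 and Eci2, which shift double bonds, differed by 0.32 ± 0.35 and -0.02 ± 0.39. For Eci1 the scrambled arrays at -0.29 and -1.52 enclosed all the mimic values. For Eci2 mimic array 3 at 0.25 stood apart from 1.30 and 1.29. Both intervals were too wide to place the genes, from -0.54 to 1.17 and from -0.98 to 0.94.

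Electrons from the acyl-CoA dehydrogenases pass to the flavoprotein of Etfa and Etfb and then to Etfdh, which reduces ubiquinone. Etfb measured 1.37, 1.34 and 1.09 with the mimic, against 1.99 and 1.58 with scrambled RNA, with no overlap, a difference of -0.52 ± 0.19 and an adjusted p of 0.161. Its next probe gave -0.87. The partner subunit Etfa was at 0.70, 0.69 and 0.57 against 0.89 and 0.68 and differed by -0.13 ± 0.15 (above 0 with the percentile over all probes), while its other probe gave -0.43. Etfa minus Etfb was -0.67, -0.65 and -0.52 with the mimic and -1.10 and -0.90 with scrambled, so the pair shifted by 0.39 relative to each other. Etfdh was above 0, at 0.46 ± 0.28, with scrambled array 2 at -0.48 and all other arrays from 0.23 to 0.54.

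The peroxisomal members were Acox3, an acyl-CoA oxidase for branched chains, and Acaa1a, a thiolase. Acaa1a stood at 0.60, 0.59 and 0.52 against 0.64 and 0.76, and its difference was -0.13 ± 0.13 with an interval from -0.46 to 0.20 (above 0 with the percentile over all probes and after GC centring). Acox3 was at -2.24, -2.21 and -2.10 with the mimic, inside the scrambled values of -2.29 and -1.46, and differed by -0.31 ± 0.26. Its 2 further probes gave -0.32 and 0.30.

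Among the regulators, Ppard is the PPAR that acts widely in muscle and Ppara the one best known from liver. Ppard measured -1.92, -1.71 and -1.68 with the mimic, against -1.62 and -1.31 with scrambled RNA, a difference of -0.30 ± 0.17 (adjusted p 0.30). Ppara was at -4.34, -3.97 and -4.19 against -3.97 and -3.82, with 1 mimic array at the lower scrambled value, and differed by -0.28 ± 0.17. Neither difference passed the test.

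A wider list of 85 other genes of fatty acid uptake, breakdown and control was read from the same fit. Of these, 60 were tested, 2 fell, 1 rose and 57 did not pass, and their median difference was 0.03. By the same rule 2.35% of all genes tested fell and 2.76% rose, so these counts are near the background. Ech1, an isomerase that shifts the double bonds of unsaturated acyl-CoA, fell by 1.01 on the log2 scale (-1.01 ± 0.17, adjusted p 0.035). Its arrays were -2.18, -2.34 and -2.26 with the mimic and -1.46 and -1.05 with scrambled. Angptl4, a PPAR target that inhibits lipoprotein lipase, was at -2.23, -2.21 and -2.11 against -1.16 and -1.53 and also fell (-0.84 ± 0.16, adjusted p 0.048). Without any 1 mimic array, none of Ech1, Angptl4 and Mgll passed, with adjusted p from 0.061 to 0.217, and Ech1 also missed without scrambled array 2 (0.053). Angptl4 was called in 13 of 29 alternatives, and missed with the percentile over all probes (0.112), with GC centring (0.194) and with quantile normalisation (0.064). Ech1 was called in 24 of 29.

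Mgll, the lipase that completes the breakdown of triglyceride by splitting monoglycerides, rose. It measured -2.47, -2.57 and -2.85 with the mimic, against -4.93 and -6.40 with scrambled RNA, a difference of 3.03 ± 0.43 with an adjusted p of 0.019. It was well above background in 6 of 6 mimic files and 1 of 4 scrambled files, so it passed the detection filter only through the mimic group and had to differ, and the size of its difference rests on scrambled signals mostly not above background. With no filter on dim probes its adjusted p was 0.115, and with normexp the difference was 1.43. It also missed the threshold with scan 2 only (0.082), with the scan as a block (0.069) and without scrambled replicate 1 (0.064). The other tested lipolysis genes did not pass, with Pnpla2, the lipase for triglyceride, at 0.27, its coactivator Abhd5 at 0.56 (adjusted p 0.158) and the lysosomal lipase Lipa at 0.57 (adjusted p 0.165).

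Of the regulators and PPAR targets, 7 of 10 tested were below 0 with a median of -0.33, and Angptl4 was the 1 called. Plin2, a lipid droplet coat protein, was at -0.81 (adjusted p 0.090), Pparg at -0.54 (adjusted p 0.088), Prkag1, a subunit of AMP-activated kinase, at -0.72 (adjusted p 0.074) and the coactivator Ppargc1a at -0.99 (adjusted p 0.150). Ppargc1a was detected in 2 mimic files and 3 scrambled files.

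No gene of the remaining groups passed the test apart from Ech1, a mitochondrial gene. The 12 tested mitochondrial genes had a median of 0.08, the 11 peroxisomal genes 0.08, the 7 genes of activation and thioesterases 0.06, the 4 carriers -0.05, the 4 odd-chain genes -0.08 and the 2 ketone body genes 0.16. The 6 genes of uptake and binding had a median of -0.25 with no call, Fabp5, a fatty acid binding protein, being highest at 0.76 (adjusted p 0.101). For scale, the 5th and 95th percentiles of all tested differences were -0.87 and 0.75.

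**Figure D4:**
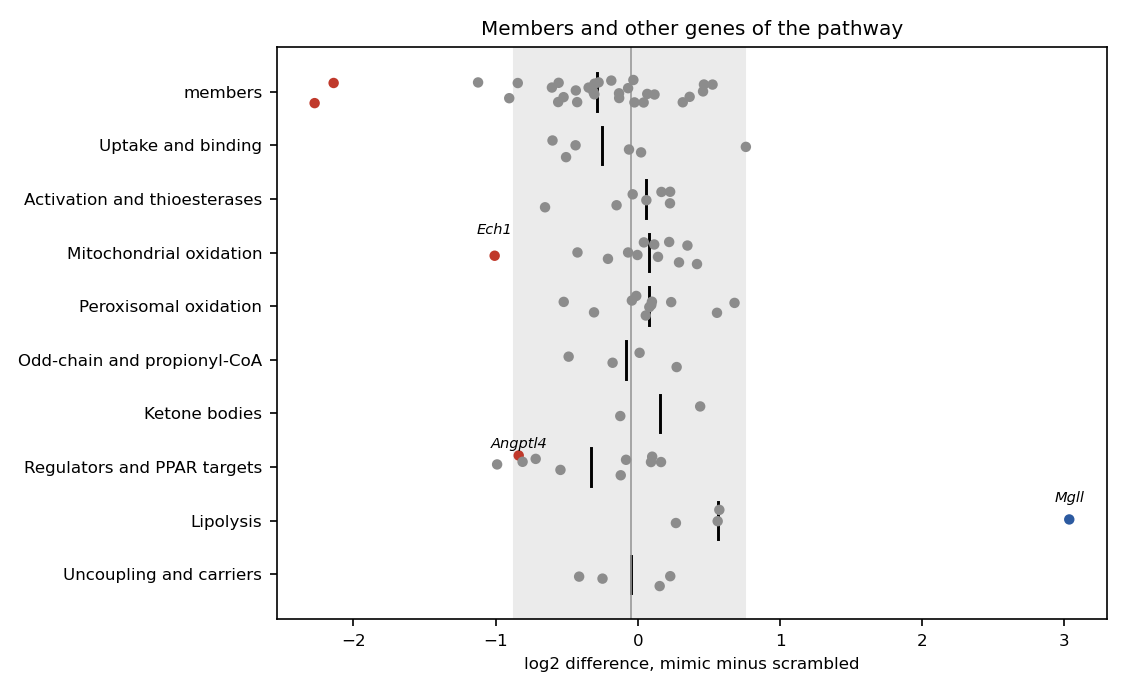
Mimic minus scrambled log2 differences (horizontal axis) of the 30 tested members and of the 60 other tested pathway genes by group, with 1 point per gene, a black bar at each group's median, red for genes that fell, blue for the gene that rose, grey for the rest, and a shaded band from the 5th to the 95th percentile of all genes tested. Of the genes past the threshold, Ucp2, Ucp3, Ech1 and Mgll stand outside the band and Angptl4 just inside its lower edge. Crat, Acadm, Ppargc1a and Fabp5, which did not pass, also lie outside it.

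Markers of the cell line and of other cell types were read in the same arrays. Of 8 myoblast markers, 6 were tested and 0 called, with 4 differences below 0 and 2 above. Myod1 was the lowest at -1.26 (adjusted p 0.081), while Vim at 0.06 and Cdh2 at 0.07 were above 0 with overlapping groups. The summed linear level of the myoblast markers was at most 21.3 with the mimic and 23.6 to 30.8 with scrambled RNA. Myf5 was detected in 1 of 10 files and Pax7 in 0. Of 12 markers of differentiating muscle, 10 were found by the names in the files and 9 tested. All 9 were below 0 with a median of -1.47, and Myog, Myh3, Acta1, Tnnt1, Tnnc2 and Ttn fell. Their summed level was 10.5 to 13.2 with the mimic against 33.3 to 33.7 with scrambled, while Actn2 was detected in no file. Ucp3, named above as a muscle gene, and the members' summed level moved the same way under the main scaling. The members' sums lay close between the groups, at most 26.8 with the mimic and at least 27.7 with scrambled. The part of differentiation in the members' differences was not tested. In bulk cells, fewer cells of a type and less RNA per cell cannot be told apart.

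None of the adipocyte, hepatocyte or epithelial markers was detected well enough to be tested. Of the fibroblast and smooth muscle markers 4 were tested, and Pdgfra and Tagln fell. Pdgfra was well above background in only 1 mimic file and 3 scrambled files. It passed the filter mainly through the scrambled group, so its call carries the limit given for Ucp2. Acta2 at -0.71 (adjusted p 0.068) and Dcn at 0.48 (adjusted p 0.195) did not pass. Dcn was higher on every mimic array than on either scrambled array, so the list did not move in a single direction. Its summed level was 14.1 to 15.9 with the mimic and 16.8 to 17.4 with scrambled. Of the leukocyte markers 3 were tested and of the endothelial markers 1, Kdr, with 0 called.

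How many members were called depended on how the arrays were counted. With all 10 files entered as separate arrays, 11 members were lower and 2 higher, but 19.4% and 15.1% of all genes were then called in those directions. In a fit that blocks on scan, with position as a random block, 4 members were lower (Acaa2, Cpt1a, Hadha and Ucp2, with Ucp3 at an adjusted p of 0.100) and 1 higher (Decr2), against 5.74% and 5.42% of all genes. With a block for the replicate number and the 10 files again as separate arrays, 6 were lower and 1 higher (Decr2), against 8.22% and 6.67%. That fit counts repeat scans as replicates, and mimic files without a scrambled file of the same number add nothing to its contrast.

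Leaving out 1 array at a time moved the background as much. Without mimic array 1, 2 or 3, no member was called in either direction, and 0.129%, 0.243% and 0.502% of all genes were lower and 0.228%, 0.304% and 0.555% higher. Without scrambled array 1, 9 members were lower (Acadl, Acadsb, Acot2, Acox3, Cpt1a, Hadh, Hadha, Ucp2 and Ucp3) and 4 higher (Cpt2, Decr2, Eci1 and Etfdh), against 18.7% and 14.3% of all genes. Without scrambled array 2 the shares of all genes were 1.72% and 2.57%, and the number of members called lower was again 2. Where a group was left with 1 array, that array was assumed to vary like the others.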

How the data were processed

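Expression was measured in 10 samples of C2C12 cells on a 1-colour Agilent mouse array. Deposited files hold linear spot intensity from Feature Extraction, 12.0.0.7 per the file headers and 10.7.3.1 per the submitters' processing notes, with background subtracted by the scanner software and probe positions on mm9. Control spots and spots marked as outliers were left out here. The processed signal was divided by a 75th percentile, taken over 12909 probes that every file detected, and converted to log2. Probes well above background in at least 4 files were kept (16775), the brightest probe stood for each gene name, and the 2 files of an array position were averaged. Of 13185 genes, 54 lacked a value on some array and 13131 were fitted with limma 3.58.1 (lmFit and eBayes, R 4.3.3), with Benjamini-Hochberg adjustment over all of them and 3 residual degrees of freedom. The number of arrays limits the precision.

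Members and lists were chosen with earlier results of these data known. Every member is named, and of the other pathway genes those past the threshold and at most 4 others of a described group. All 33 member accessions matched the same symbol in RefSeq (GRCm38.p6), and 29 had a promoter there. Alternatives covered scaling, background correction, the filter, the choice of probe, scan, block, the deposited value table and each array and file left out. In that table, which holds the authors' intensity values on a linear scale, column medians were 188.9, 273.4, 256.6, 212.6, 249.8 and 291.1 for mimic and 241.9, 242.2, 201.1 and 212.6 for scrambled. Its ranks followed the scanner files (Spearman at least 0.9987). How it was normalised and the rule behind its empty dim probes are unknown.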

Additional observations from a re-analysis of the deposited data

How the results depend on the processing

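Ucp2 and Ucp3 kept a lower level under every alternative run that tested them, but not their call. None of the 5 members and other pathway genes called in the main analysis (Ucp2, Ucp3, Ech1, Angptl4 and Mgll) changed sign. The called cell type markers were not followed through the alternatives. Acox3 and Eci1, called without scrambled array 1, had the other sign without scrambled array 2 (0.11 and -0.30). Main counts were 672 genes called, 2 members lower and 0 higher, 2 other pathway genes lower and 1 higher. With 10 separate files these were 4507, 11, 2, 14 and 10. In the fit that blocks on scan, with position as a random block, they were 1456, 4, 1, 7 and 0. Deviations of same-numbered mimic and scrambled files from their group means had correlations of 0.38, -0.04, -0.35 and -0.11 for numbers 1 to 4. These values mix scan with any pairing, so they cannot decide whether replicate numbers pair the samples. The fit with a replicate block, run on 10 separate files, gave 1943 genes, 6 members lower, 1 higher and 7 other pathway genes lower. With no filter on dim probes, 17 genes, 0 members and 0 other pathway genes in either direction were called (Ucp2 and Ucp3 at adjusted p 0.149 and 0.141). Requiring detection in all 10 files removed Ucp2, Ucp3 and Mgll from the test, leaving 0 members lower and 0 other pathway genes higher. Normexp left 1 member lower, Ucp3, with its difference at -1.05, and put Ucp2 at -1.13 and Mgll at 1.43. Only 1 other pathway gene was lower with scan 1 only, the percentile over all probes, quantile normalisation, the deposited value table, every probe tested or GC centring, and 0 were higher with scan 2 only. The members' median of -0.29 was -0.13 with the percentile over all probes, -0.21 with quantile normalisation and -0.22 with normexp. It was -0.15 with the deposited value table, -0.19 with detection in all files and -0.15 with GC centring. None of these medians is taken relative to the median of all genes, which can itself move with the scaling, as given above for the percentile over all probes. Leaving out 1 array or file gave 47 to 4338 genes called, 0 to 9 members lower, 0 to 4 higher, 0 to 8 other pathway genes lower, 0 to 11 higher and a members' median of -0.31 to -0.22. The highest counts came without scrambled array 1 and the lowest without mimic array 1, 2 or 3. The cause of these shifts was not tested. Signal over background limits Ucp2, Ucp3, Slc25a20, Crat, Cpt1b and Acads, whose dim levels are bounds or are not measured.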
